A study of Drosophila melanogaster and Drosophila yakuba and Drosophila virilis with 31 samples.

Results

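In blastoderm embryos of 4 Drosophila species, 48 of 5993 genes (0.801%) were high in D. melanogaster (mel) and D. yakuba (yak) and low in D. pseudoobscura (pse) and D. virilis (vir). The genes were selected on their embryo levels: the lower of the mel and yak embryo means had to be at least 10 and at least 4 times the higher of the pse and vir means. Levels are FPKM (fragments scaled to transcript length and to the mapped total of the library) scaled so that the 75th percentile of autosomal genes was equal in all libraries. Their species pattern in embryos is therefore a description with no test. Where 4 values follow each other without names, they are those of mel, yak, pse and vir, in this order.

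The libraries were 31 single animals of laboratory strains: Oregon-R (mel), Tai18E2 (yak), MV2-25 (pse) and V46 (vir). From each species 6 embryos were taken, 3 of each sex by a PCR assay for the Y chromosome, which had finished cellularization and had not begun to gastrulate. Each also had 2 newly laid unfertilized eggs, except pse with 1. Embryos came from a large number of mothers, while each species is represented by 1 strain, so strain and species cannot be told apart. The study removed 2 embryos for low quality, female 3 of pse and male 1 of vir, and they were left out here, which leaves 22 embryos (6 mel, 6 yak, 5 pse and 5 vir) and 7 eggs. An RNA level of a whole embryo cannot tell fewer expressing cells from less RNA per cell.

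An unfertilized egg holds the RNA that the mother deposited during oogenesis. After fertilization this maternal RNA is degraded in waves while the zygotic genome is switched on, with most zygotic transcription beginning around cellularization. RNA of a blastoderm embryo is therefore a mixture of maternal RNA that has lasted and zygotic RNA that has been made, and a gene can differ between species through its deposit, its loss or its new transcription. The egg levels, which the rule did not use, give the first of these.

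By sums of marker genes the libraries showed the labelled stages. The summed level of 9 zygotic blastoderm genes was 545 to 899 in embryos and 13.0 to 65.3 in eggs, and that of 6 maternal genes was 1352 to 2089 in eggs and 329 to 590 in embryos. Among the zygotic genes, slam was lower in embryos than in eggs in mel (23.3 and 42.1) and yak (39.3 and 46.5). Its embryo mean was 48.6 in pse and 234 in vir, where it was the highest of the 9 genes. Among the maternal genes, stau was higher in embryos than in eggs in mel, yak and pse. Most of the maternal sum was CycB, with egg means of 1120 to 1447. The blastoderm sum overlapped between the species pairs, with 545 to 899 in mel and yak embryos and 618 to 889 in pse and vir embryos. The 1 gene of gastrulation, fog, had higher embryo means in mel and yak, at 19.3, 16.1, 6.62 and 9.65. Single mel embryos had 13.5 to 29.2 of it and yak embryos 8.57 to 22.4. Those of pse had 4.68 to 9.96 and those of vir 6.88 to 11.5, so yak overlapped both. In eggs the means of fog were 39.3, 14.0, 22.7 and 7.28. Other sums set vir apart. The maternal sum was 329 to 375 in vir embryos and 477 to 590 in the other species, and that of 2 genes of later tissues was 69.4 to 97.7 in vir, 32.9 to 64.6 in pse, 32.4 to 58.2 in mel and 9.66 to 38.9 in yak. Nearly all of the sum for later tissues was elav, since the other gene, Act57B, had embryo means of at most 1.72. The sum of 4 pole cell genes was 311 to 408 in pse embryos and 26.2 to 149 in the others, and of its genes it was aub that stood apart in pse, with a mean of 302, while the means of nos, pgc and tud were 10.5 to 32.0 in pse beside 18.3 to 27.0 in mel. The sum of 2 genes of follicle cells and eggshell was at most 8.06. The part of differences in stage in the results was not tested. No read counts were given, and the depth of the libraries is not known. The third yak male was the lowest of the 6 yak embryos for 18 of the 48 genes, beside 19.1% of all genes, and was more than 1.5 times below all other yak embryos for 6 of them, beside 2.45% of all genes.

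The median embryo level of the 48 genes was 37.7, 43.3, 2.97 and 2.43 in the 4 species, while the median of all genes lay between 13.8 and 15.4 in the 4 species. For 47 of the 48 genes every mel and yak embryo was above every pse and vir embryo. The exception was CG10602, which had 9.02 in the third yak male and up to 14.7 in vir. For 23 genes the lowest mel or yak embryo was at least 4 times the highest pse or vir embryo. The rule used these embryo levels, so nothing is read from the counts of separated genes. In pse 13 and in vir 14 genes had a mean under 1. The genes just inside the threshold were CG10602, CG11050 and CG3618, with ratios of 4.08, 4.15 and 4.17, and those just outside were Rab39, CG8680 and CG34148, with 3.999, 3.97 and 3.96. Just under the level of 10 were snRNA:U6:96Aa and snRNA:U6:96Ac, with 9.83 each.

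**Figure D1:**
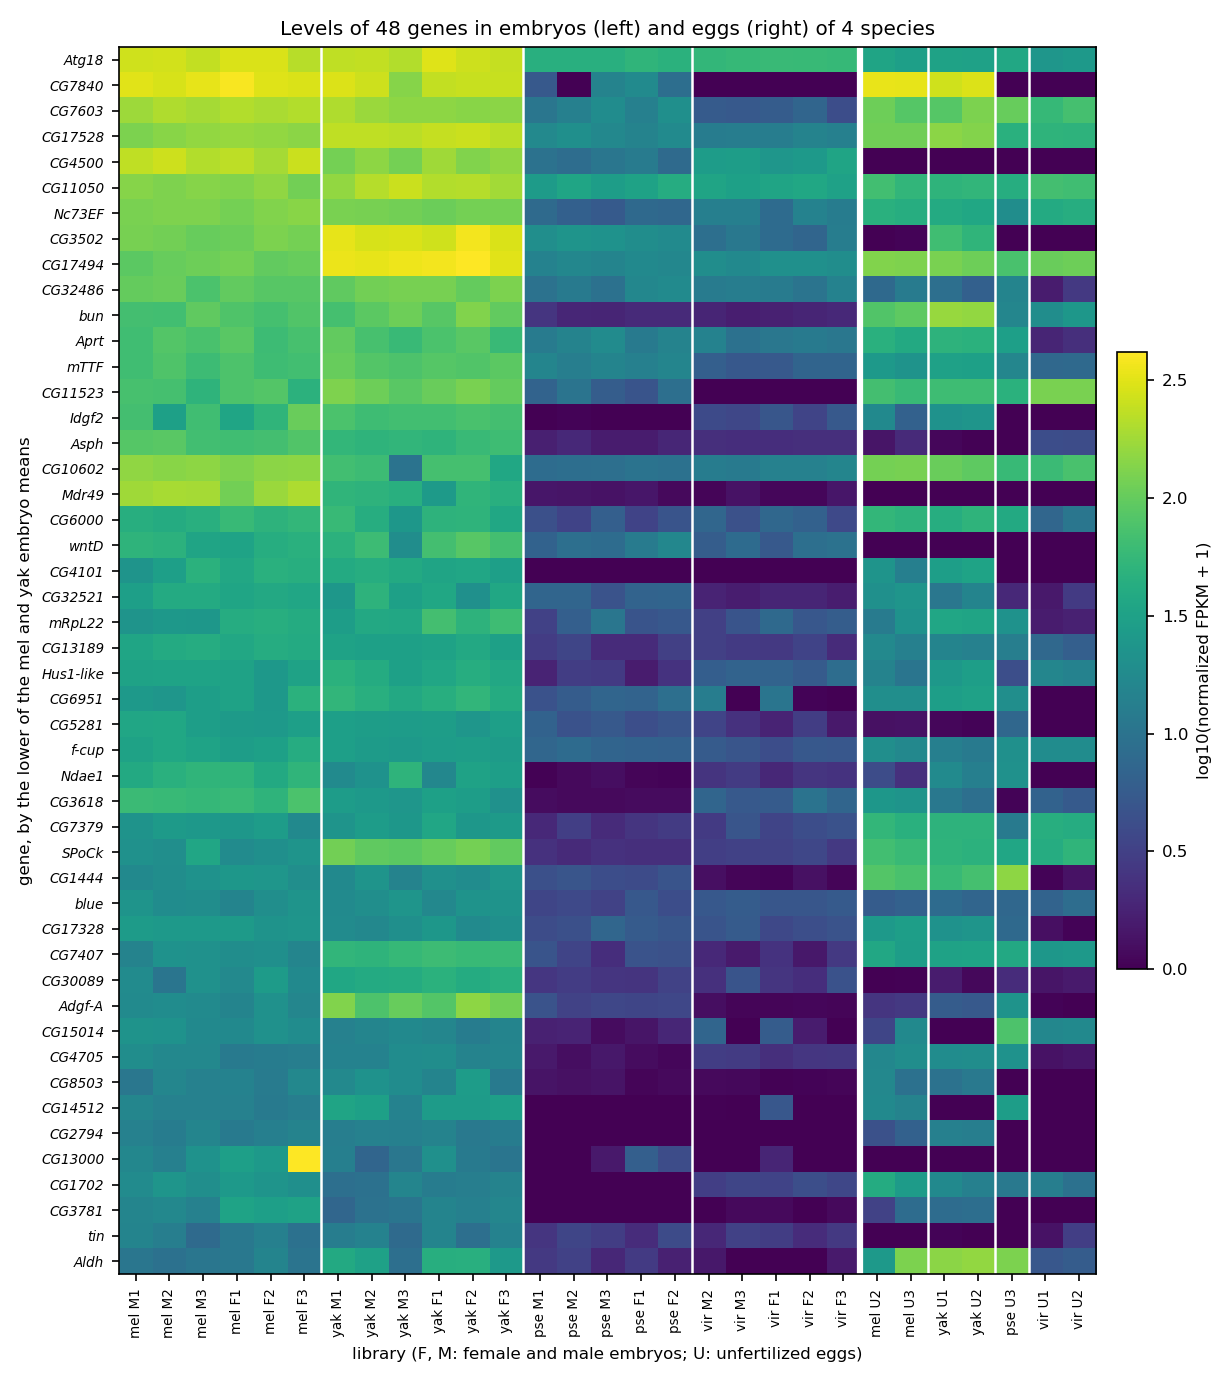
Level of each of the 48 genes (rows) in each library (columns), as log10(normalized FPKM + 1) by colour, with embryos on the left and eggs on the right. The mel and yak embryos (medians 37.7 and 43.3) are bright and the pse and vir embryos (2.97 and 2.43) dark, while the eggs of mel, yak and pse have medians of 17.2, 21.5 and 14.5 and those of vir 1.18.

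In eggs the median level of pse was near those of mel and yak, while that of vir was far lower. The median egg level of the 48 genes was 17.2, 21.5, 14.5 and 1.18, beside 20.4, 20.3, 21.3 and 15.6 over all genes. With presence taken as an egg mean above 1, 23 of the 48 genes had RNA in the eggs of all 4 species (3986 of 5993 over all genes). In 6 genes it was present in mel and yak eggs only (60 of 5993), in 4 genes in no egg (1111 of 5993), and in 15 genes in another combination of species.

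For the 23 genes with RNA in all eggs, the median egg level was 43.4, 45.7, 28.8 and 20.9. The embryo medians were 66.1, 74.5, 6.04 and 4.65. The median ratio of embryo to egg was 1.69 in mel and 1.76 in yak, against 0.207 in pse and 0.254 in vir. The embryo mean was below the egg mean for 8 of the 23 genes in mel and 6 in yak, and for 21 in pse and 20 in vir. These ratios contain the embryo levels that chose the genes, so they are given as a description.

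Over all genes with an egg mean above 1 the median ratio of embryo to egg was close to 1 in each species, at 0.896, 0.896, 0.859 and 1.05. Among the 48, the same median was 1.77 over 39 mel genes, 1.70 over 38 yak genes, 0.176 over 34 pse genes and 0.281 over 27 vir genes. The embryo mean was under 0.25 of the egg mean for 1 of 39, 1 of 38, 19 of 34 and 12 of 27 of these genes, beside 18.1%, 18.9%, 19.9% and 13.7% of all genes with an egg mean above 1. The embryo levels chose the genes, so nothing is read from these shares.

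By single libraries, every embryo was above every egg for 32 of the 48 genes in mel (44.7% of all genes), 33 in yak (38.4%), 12 in pse (43.2%) and 16 in vir (48%). Every embryo was below every egg for 7 genes in mel (31.5% of all genes), 5 in yak (32.8%), 31 in pse (37.4%) and 21 in vir (28.9%). In both mel and yak together, every embryo was above every egg for 27 genes (30.9% of all genes), and in both pse and vir every embryo was below every egg for 19 genes (19.1%). Both held for 10 genes (0.834% of all genes): CG7603, CG17528, CG11050, Nc73EF, mTTF, CG13189, Hus1-like, f-cup, blue and CG15014. The rule used the embryos of these contrasts, and nothing is read from the shares.

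**Figure D2:**
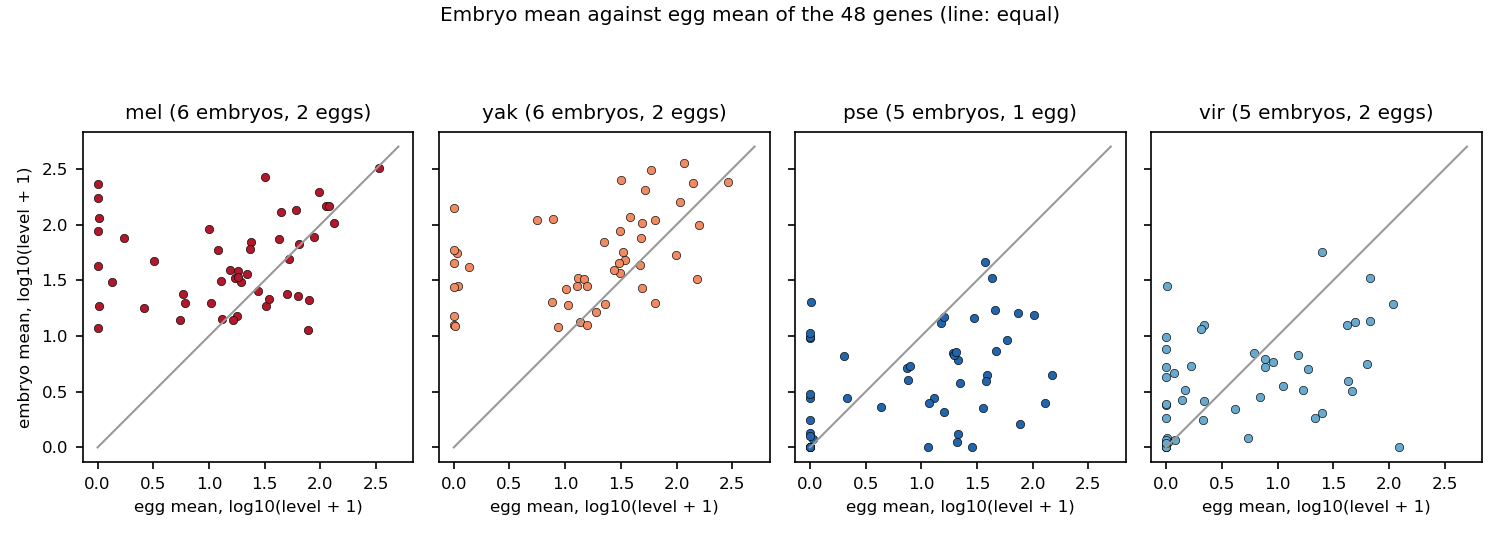
Embryo mean against egg mean of the 48 genes in each species, both as log10(level + 1), with the line of equal levels. In mel and yak most points lie above the line (35 and 37 of 48 genes), while in pse 15 and in vir 23 of 48 do, and many genes with high egg levels lie far below it.

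Nc73EF, CG7603, mTTF, mRpL22 and Aldh encode proteins of mitochondria and are described first, a grouping by known role made after their values were seen, with no test. Nc73EF (Ogdh in the current annotation) encodes the E1 subunit of the 2-oxoglutarate dehydrogenase of the Krebs cycle. Its level in embryos was 118 to 143 in mel (median 130) and 106 to 124 in yak (median 118). Males listed first, it was 7.05, 5.30, 4.55, 6.79 and 6.51 in the pse embryos and 12.4, 12.6, 7.26, 13.4 and 11.6 in the vir embryos. All mel and yak embryos stood far above all others. The eggs held 45.3 and 41.5 in mel, 38.6 and 35.8 in yak, 18.1 in pse and 39.3 and 42.2 in vir, so vir and mel eggs overlapped while vir embryos were lower than their eggs and mel embryos higher. The exons of Nc73EF overlap 2 other coding genes, and how reads were divided there was not tested.

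CG7603 (QIL1) encodes a subunit of the MICOS complex, which shapes the cristae of mitochondria. Its embryo level was 173 to 208 in mel (median 197) and 141 to 201 in yak (median 149). The pse embryos had 9.71, 12.9, 18.01, 12.9 and 19.3, and the vir embryos 4.64, 4.45, 4.84, 6.18 and 3.15. Eggs of all species held much of this RNA, with 109 and 84.4 in mel, 84.6 and 127 in yak, 101 in pse and 55.5 and 68.8 in vir. From egg mean to embryo mean the level changed to 2.01 times in mel and 1.505 times in yak, and to 0.144 times in pse and 0.0748 times in vir. The difference between the eggs of the species pairs did not pass the test (0.33 ± 0.20 SE on the log2(level + 1) scale, limma with Benjamini-Hochberg adjustment, adjusted p = 0.176), and did pass without the single pse egg (0.68, adjusted p = 0.00952).

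mTTF, a transcription termination factor of mitochondria, had 60.9 to 78.1 in mel embryos (median 65.5) and 76.3 to 102 in yak embryos (median 83.6). Its pse embryos (14.6, 12.1, 14.3, 12.7 and 14.7) lay just under the pse egg (14.9), and its vir embryos (5.28, 4.26, 4.41, 6.02 and 6.02) just under the vir eggs (6.67 and 6.87). The mel eggs had 24.98 and 21.2 and the yak eggs 30.5 and 30.2, so this gene was lower in pse and vir from the egg on. mRpL22, a protein of the large ribosomal subunit of mitochondria, had embryo means of 32.1, 46.8, 5.06 and 4.36. Its eggs held 16.1, 33.7, 20.4 and 0.67, so the pse egg lay between mel and yak.

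Aldh, which encodes a mitochondrial aldehyde dehydrogenase, had among the largest falls from egg to embryo of the 48 genes. The mel eggs held 24.98 and 127, the yak eggs 146 and 155.8, the pse egg 127 and the vir eggs 4.13 and 4.77. Embryo means were 10.2, 31.5, 1.49 and 0.207, which is 0.134, 0.209, 0.0117 and 0.0466 of the egg mean. Here embryos lay below eggs in all 4 species.

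Aprt and Adgf-A were grouped in the same way, since both act on purines. Aprt makes AMP from adenine in the salvage pathway, and Adgf-A is a secreted adenosine deaminase that breaks down extracellular adenosine. Aprt had embryo levels of 62.2 to 87.8 in mel (median 71.9) and 58.1 to 96.1 in yak (median 73.0). Its pse embryos had 11.4, 14.0, 17.2, 11.0 and 13.7, and its vir embryos 13.6, 8.52, 10.03, 10.8 and 9.86. Embryos of pse and vir overlapped, but the pse egg held 28.8 and the vir eggs 0.86 and 1.26, so the embryo level was below the egg in pse and above it in vir. Adgf-A had embryo means of 16.9, 109, 2.75 and 0.123 and egg means of 1.61, 4.60, 21.3 and 0.0359. Its highest egg was that of pse. The exons of Adgf-A overlap those of the neighbouring Adgf-A2 on the same strand in the current annotation.

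The genes that follow act at membranes, in transport or in growth and damage signalling, likewise grouped by known role. Atg18 (Atg18a), which binds phosphatidylinositol 3-phosphate and is needed to form autophagosomes, had the highest level by the lower of the mel and yak means. Its embryo level was 220 to 295 in mel (median 273) and 208 to 311 in yak (median 241). The pse embryos had 43.6, 43.5, 43.6, 51.4 and 45.9, and the vir embryos 53.4, 56.3, 59.4, 57.2 and 55.3. The eggs of all species were close together, at 32.5 and 28.8 in mel, 31.2 and 30.3 in yak, 36.0 in pse and 22.7 and 24.9 in vir. Embryos lay above eggs in each species, with ratios of means of 8.66, 8.12, 1.27 and 2.36, and the eggs of the species pairs differed by 0.06 ± 0.11 (SE, log2(level + 1), limma, adjusted p = 0.701). Without the single pse egg that difference was 0.35 and was called (adjusted p = 0.0120).

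bun encodes proteins of the TSC-22 family that promote growth and act in oogenesis. Its embryos had 65.8 to 95.7 in mel (median 74.1) and 69.9 to 132 in yak (median 94.4). The pse embryos had 1.52, 0.912, 0.887, 1.07 and 1.04, and the vir embryos 0.869, 0.646, 0.75, 0.883 and 1.00. The ratio of the lower mean of mel and yak to the higher mean of pse and vir was 70.0. Eggs held 80.8 and 91.9 in mel, 163 and 156.3 in yak, 14.9 in pse and 18.1 and 23.6 in vir. The pse and vir embryos were at 0.073 and 0.0398 of their eggs, and these eggs were below every mel and yak egg (2.67 ± 0.17 SE, adjusted p = 1.50e-11). The annotated span of bun in pse was 0.129 of that in mel, while in vir it was 1.57.

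SPoCk encodes a calcium pump of the secretory pathway. Eggs of every species held it, with 65.6 and 59.2 in mel, 49.1 and 46.9 in yak, 34.5 in pse and 40.7 and 51.4 in vir. The embryos had 17.2 to 34.9 in mel (median 19.8), 90.7 to 117 in yak (median 99.3), 1.38, 1.05, 1.37, 1.24 and 1.26 in pse, and 2.07, 2.18, 2.31, 2.61 and 1.71 in vir. Yak was the only species with embryos above its eggs. The ratio of embryo mean to egg mean was 0.352, 2.14, 0.0364 and 0.0473.

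CG17494 (Slmap) encodes a protein of the STRIPAK phosphatase complex, which holds back the Hippo growth pathway. It had 132 and 128 in mel eggs, 122 and 109 in yak eggs, 72.8 in the pse egg and 105 and 110 in vir eggs. Embryo means were 103, 358, 15.03 and 18.5, so that as with SPoCk the highest level by far was in yak embryos. CG4705 (Wdr59) encodes a member of the GATOR2 complex, which acts in nutrient sensing upstream of TOR. Its egg means were 16.9, 18.1 and 20.4 in mel, yak and pse and 0.391 in vir, and its embryo means were 14.2, 15.3, 0.323 and 1.67.

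Ndae1, a sodium-driven anion exchanger, had embryo means of 45.7, 26.9, 0.12 and 1.45. The pse egg held 19.9, close to the 16.8 and 12.5 of yak eggs, while mel eggs held 3.10 and 1.33 and both vir eggs were listed at 0. CG13189 (Zip48C), a zinc transporter, had 14.4, 13.7, 12.1 and 5.98 in eggs and 38.4, 31.6, 1.76 and 1.82 in embryos. Hus1-like encodes a subunit of the checkpoint clamp that responds to DNA damage. Its embryo means were 30.4, 38.0, 1.31 and 5.79 and its egg means 11.7, 26.4, 3.30 and 14.2, so that vir eggs lay near mel eggs.

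**Figure D3:**
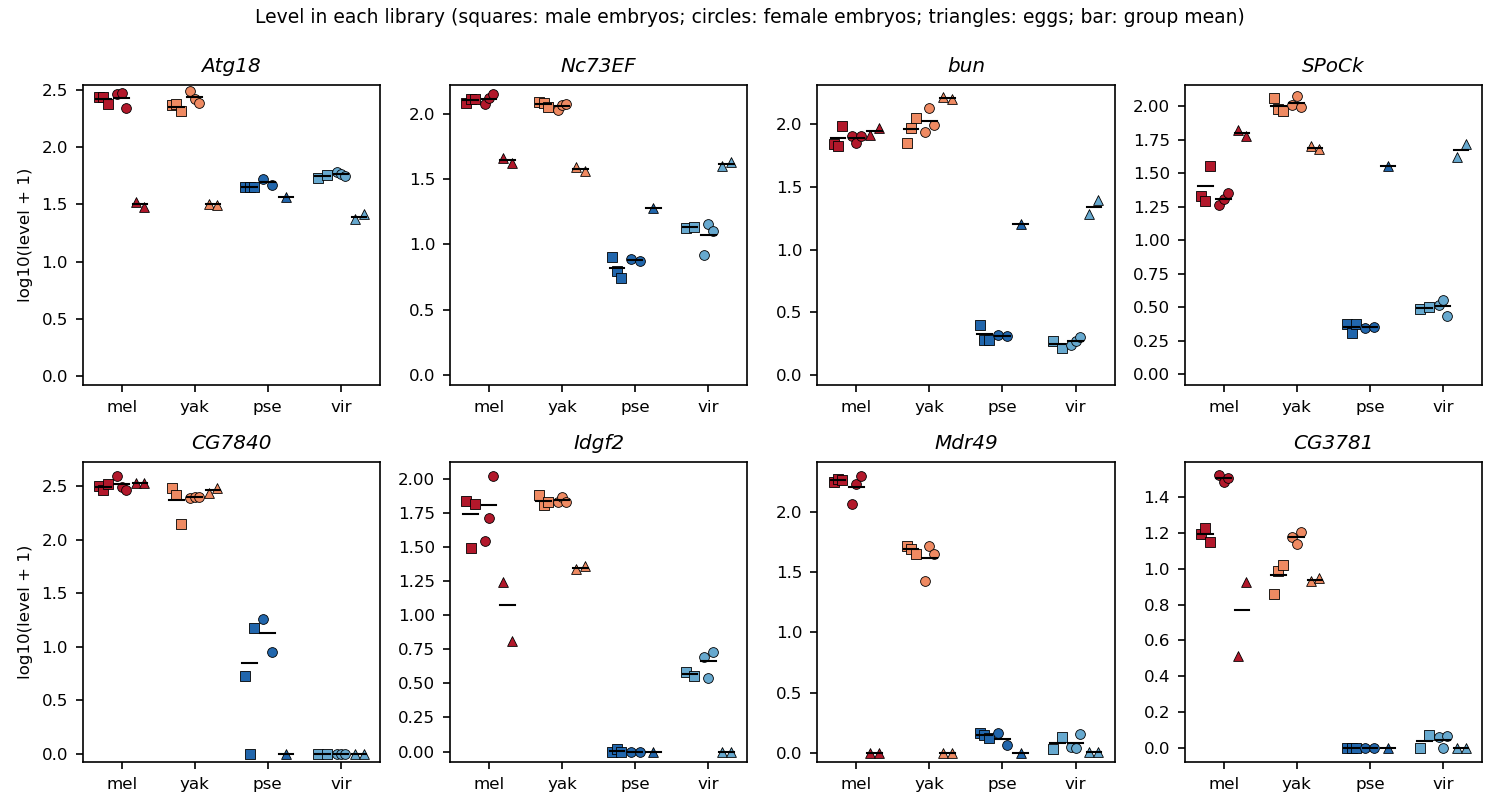
Level of 8 of the genes in every library, as log10(level + 1), by species, with squares for male embryos, circles for female embryos, triangles for eggs and bars for group means. Atg18 eggs lie between 22.7 and 36.0 in all species, SPoCk eggs between 34.5 and 65.6, while Mdr49 is at or near 0 in every egg and CG7840 is listed at 0 in pse and vir eggs.

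The comparison of eggs asked whether these genes already differed between the species pairs before the zygotic genome was active. The mean of the mel and yak eggs less the mean of the pse and vir eggs was tested in limma on log2(level + 1) over 5983 genes. All 48 genes passed the filter on low levels (a mean of more than 1 in any of the groups), since their mel and yak embryos were high. Of the 48, 28 were higher in mel and yak eggs and 4 lower at an adjusted p under 0.05, and 16 did not pass. Over all genes, 52.2% were called, 26.9% higher and 25.3% lower. The median difference was 0.72 over the 48 genes and 0 over all genes. Every mel and yak egg was above every pse and vir egg for 18 genes (12.8% of all genes), and below for 0 of 48 (13.2%). The rule did not use egg levels, but part of the RNA of an embryo can be maternal RNA that has lasted. Eggs and embryos also share the gene models, and the paper reports that species differences in embryos correlate with those in eggs. The counts are thus not independent of the rule, and nothing is read from them beside those of all genes.

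The largest differences were in genes whose RNA was near 0 in pse and vir eggs. CG7840 had 339 and 335 in mel eggs and 271 and 305 in yak eggs, and was listed at 0 in the pse egg and both vir eggs (8.29 ± 0.52 SE on the log2(level + 1) scale, limma, adjusted p = 7.61e-12). It was listed at 0 in all vir embryos too, while pse embryos had 4.39, 0, 13.9, 17.1 and 7.89, where the 0 stands for a value under 0.01. Its exons overlap Ostgamma on the other strand. CG4101 had 21.8 and 12.6 in mel eggs, 28.4 and 31.8 in yak eggs, and was listed at 0 in every pse and vir library, egg or embryo (4.55 ± 0.19, adjusted p = 9.31e-15). It was the only gene of the 48 at 0 in all of them, and 27 of 5993 genes were so over the whole table. In such genes the difference depends on the 1 that is added before the logarithm.

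Idgf2 encodes a secreted growth factor related to chitinases. It had 16.4 and 5.45 in mel eggs, 20.7 and 22.01 in yak eggs, and was listed at 0 in pse and vir eggs (3.94 ± 0.33, adjusted p = 9.80e-10). In embryos it was 29.9 to 105 in mel (median 57.7), 63.2 to 75.2 in yak (median 66.7), at most 0.0516 in pse, and 2.85, 2.59, 3.97, 2.47 and 4.40 in vir. CG8503 (SmydA-1, of the SMYD family of SET-domain proteins), CG2794 and CG3781 (Josd, a Josephin-type deubiquitinase) were likewise present in mel and yak eggs and listed at 0 in pse and vir eggs. Their egg means were 12.03, 4.54 and 4.85 in mel and 9.63, 12.5 and 7.67 in yak, and their differences were 3.53 ± 0.23, 3.10 ± 0.13 and 2.75 ± 0.21, each called by limma. These 6 genes are those with egg RNA in mel and yak only.

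Other genes were higher in mel and yak eggs without being at 0 in the rest. CG32521 (Mnr) had 19.6 and 22.1 in mel eggs, 9.94 and 14.2 in yak eggs, 1.03 in the pse egg and 0.495 and 1.81 in vir eggs (3.04 ± 0.25, limma adjusted p = 9.17e-10). CG17328 had 24.7 and 28.5, 20.7 and 22.4, 6.86, and 0.288 and 0.0712 (3.04 ± 0.18, adjusted p = 2.04e-12). CG3502 was called (2.94 ± 0.16, adjusted p = 8.56e-13) with 64.5 and 50.9 in yak eggs alone, since mel eggs were at 0 and 0.0672. Thus the call of CG3502 came from yak eggs only, and a contrast of means does not say that both species share the higher level. Nor does it say that pse and vir share the lower level. The pse egg was above every mel and yak egg for CG1444 (149), CG4705 (20.4) and CG32486 (14.1). It lay among them for Aldh, mRpL22 and CG6951, and in all of these the vir eggs were the low ones. For Nc73EF, CG17494, SPoCk and Hus1-like, vir eggs overlapped those of mel or yak.

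The 4 genes lower in mel and yak eggs were CG15014, CG5281, Asph and f-cup. CG15014 had 2.55 and 16.4 in mel eggs and was listed at 0 in yak eggs, against 76.2 in the pse egg and 15.2 and 16.5 in vir eggs (−3.69 ± 0.56, limma adjusted p = 7.63e-06). Asph, an aspartyl beta-hydroxylase, had 0.42 and 1.05 in mel eggs, 0.114 and 0.0313 in yak eggs, 0 in the pse egg and 3.14 and 3.08 in vir eggs, while its embryo means were 75.4 in mel and 54.5 in yak. CG5281 had at most 0.343 in mel and yak eggs, 6.43 in the pse egg and 0 in vir eggs. f-cup, which encodes a leucine-rich repeat protein, had 11.1 to 18.9 in mel and yak eggs, 19.5 in the pse egg and 17.6 and 17.9 in vir eggs. All 4 thus had higher embryo levels in mel and yak from an egg level that was on average lower.

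The single pse egg bore on these calls. Without it, the contrast of Nc73EF was −0.020 and that of CG5281 0.27, both turned in sign and not called. Hus1-like (0.28), CG7379 (0.21), CG17494 (0.19), SPoCk (0.25) and f-cup (−0.30) were also no longer called. In the other direction, CG1444 moved from 2.40 to 5.89, Aprt from 2.53 to 4.46, Aldh from 1.83 to 4.11, CG4705 from 1.76 to 3.73 and mRpL22 from 2.00 to 3.84, genes that were higher in the pse egg than in both vir eggs. CG6951 (2.46 to 4.60), CG6000 (1.40 to 2.47), CG32486 (0.62 to 2.05) and CG13189 (0.65 to 1.11) moved the same way, CG3618 moved from 2.60 to 1.33 and Asph from −0.58 to −1.60. Close to the threshold, f-cup was also lost without mel egg 3, yak egg 2 or vir egg 2 (−0.35 to −0.29), SPoCk without mel egg 2, yak egg 1 or vir egg 1 (0.37 to 0.43), and CG32486 without mel egg 3, yak egg 1 or vir egg 1 (0.42 to 0.50). Without the pse egg 7 genes were newly called: Ndae1 (2.79), CG14512 (2.01), Adgf-A (1.88), CG7603 (0.68) and Atg18 (0.35) as higher in mel and yak, and tin (−0.99) and CG11523 (−0.95) as lower. The count was thus 32 of 48 with and without the pse egg, but 25 genes were called in both fits. Leaving out any other egg gave 30 or 31 calls, with 1 or 2 lost and at most 1 gained.

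**Figure D4:**
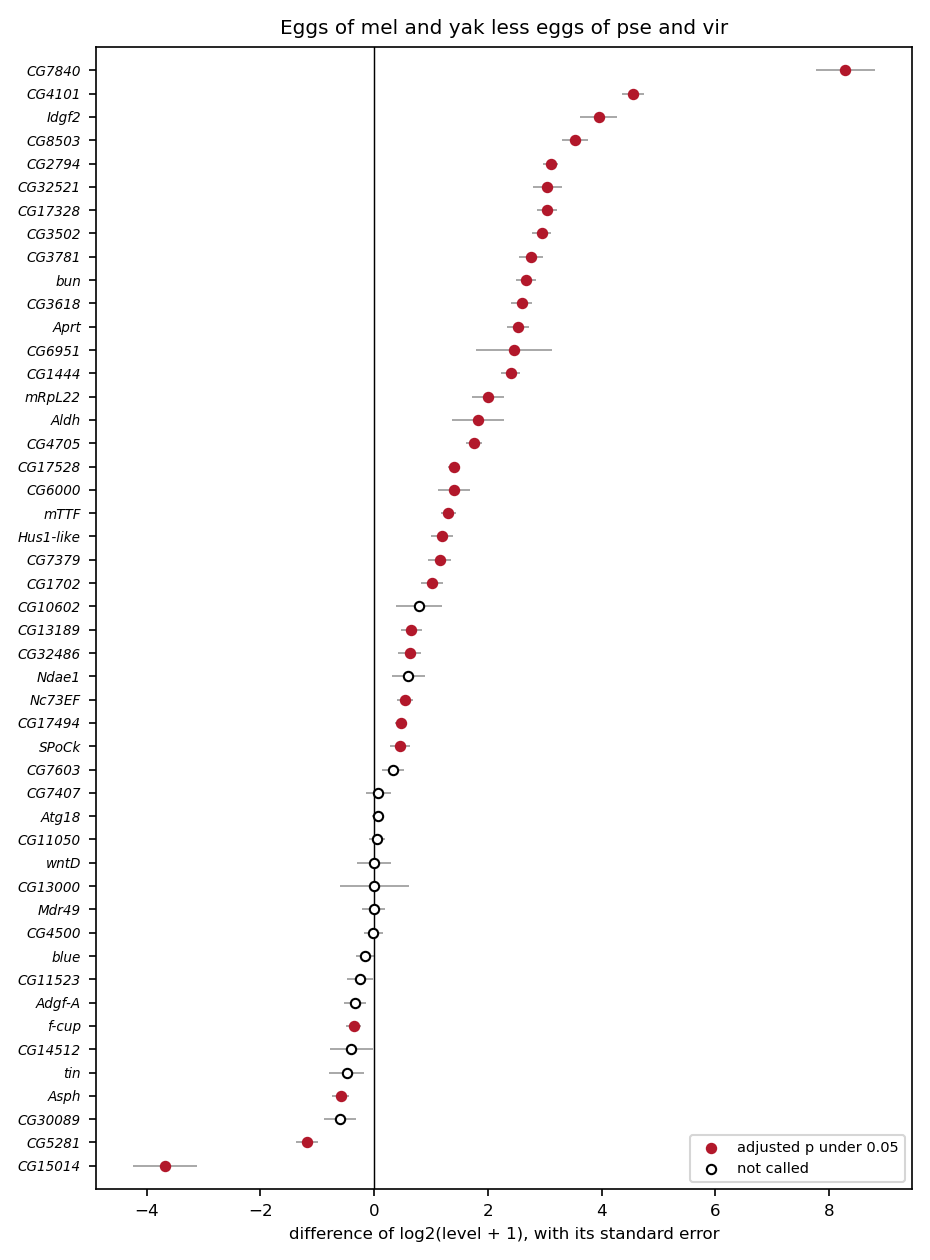
Difference between the mean of mel and yak eggs and the mean of pse and vir eggs for each of the 48 genes, on the log2(level + 1) scale, with its standard error. Filled points passed an adjusted p under 0.05: 28 lie to the right of 0, up to 8.29 for CG7840, and 4 to the left, down to −3.69 for CG15014.

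In 4 genes no species had RNA in eggs above 1, and the authors' classes of origin, which for yak, pse and vir were predicted from egg and embryo levels, give all of them as zygotic in each species. Mdr49 encodes an ABC transporter of the MDR family that acts in the guidance of germ cells. Its embryos had 114 to 198 in mel (median 180) and 25.6 to 50.9 in yak (median 46.04). The pse embryos had 0.449, 0.395, 0.338, 0.456 and 0.164, and the vir embryos 0.0753, 0.358, 0.113, 0.102 and 0.425. The ratio of the lower of mel and yak to the higher of pse and vir was 122. Its exons overlap those of Sans on the other strand.

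wntD encodes a Wnt ligand that feeds back on Toll signalling and inhibits Dorsal. It was listed at 0 in all eggs. Its embryos had 32.1 to 49.3 in mel (median 43.6) and 18.4 to 85.8 in yak (median 64.7). The pse embryos had 5.71, 8.07, 7.45, 11.2 and 15.3, and the vir embryos 4.92, 7.23, 4.36, 7.97 and 8.67. The lowest yak value was that of the third yak male, and it was still above every pse and vir embryo.

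CG4500 (hll) was the most abundant of these 4 genes, with 182 to 262 in mel embryos (median 231), 117 to 175 in yak (median 141), 8.65, 7.57, 9.63, 11.3 and 7.01 in pse, and 27.4, 27.8, 23.0, 25.3 and 33.1 in vir. CG13000 had 12.7 to 416 in mel (median 22.9) and 6.16 to 19.8 in yak (median 10.4), with 0 to 5.21 in pse and 0 to 0.881 in vir. The value of 416 came from the third mel female, and the mel mean was 86.5 with it and 20.5 without it.

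tin encodes a homeobox factor of the NK family that sets the identity of the heart and dorsal mesoderm. It had 7.07 to 14.2 in mel embryos (median 11.2) and 7.01 to 14.3 in yak (median 12.7). The pse embryos had 1.52, 2.51, 2.03, 1.15 and 2.99, and the vir embryos 0.954, 2.20, 2.00, 1.17 and 1.71. The eggs were at or under 0.0595 in mel, yak and pse, and held 0.327 and 2.07 in vir. tin was the only gene found among the 335 genes of 26 lists of early patterning, signalling, metabolism and chromatin that were in the table. It was 1 of the 22 mesoderm and neurectoderm genes, and 15 of the 22 had a level of 10 or more in mel and yak.

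For 11 of the 48 genes, relatives were looked at in 10 families or pathways chosen after the genes were seen, and 9 of these held 1 of the 48 genes. No family was examined for the rest. Of 3 imaginal disc growth factors, Idgf2 was included, while Idgf4 had embryo means of 449, 501, 168 and 471. Of 3 Wnt genes in the table, wntD was included, and wg had 30.3, 23.0, 20.5 and 13.6. Of 9 autophagy genes only Atg18 was included, while Atg8a had 464, 357, 630 and 492 and Atg1 30.4, 36.1, 24.0 and 20.3. Of 11 genes of the Krebs cycle, Nc73EF was included. CG5214, which encodes the E2 subunit of the same enzyme, had 50.9, 39.5, 11.8 and 69.6, so pse was low and vir was not. Of 7 genes of adenosine deamination and purine metabolism, Adgf-A and Aprt were included. The other 5 families held 1 of the 48 genes each: Mdr49 of 2 MDR transporters, Hus1-like of 7 checkpoint genes, CG4705 of 3 GATOR genes, SPoCk of 2 calcium pumps and Ndae1 of 6 sodium and bicarbonate carriers. The other calcium pump, Ca-P60A of the endoplasmic reticulum, had 42.9, 61.3, 64.1 and 89.7, and Rad9, a partner of Hus1 in the checkpoint clamp, had 10.9, 27.8, 12.9 and 16.6.

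The levels of mel and yak embryos were compared to see how the 48 genes vary between the species that share the high level. The rule used the lower of the 2 means and not their order, but it bounded both from below, so the counts are not independent of it and nothing is read from them beside those of all genes. Of the 48 genes, 27 differed at an adjusted p under 0.05 in limma, 11 higher in mel and 16 higher in yak. Over the 5856 genes tested, 68.5% differed, 39.2% higher in mel and 29.3% higher in yak.

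The genes highest in yak relative to mel were Adgf-A, SPoCk and CG17494. Adgf-A had 14.4 to 20.3 in mel embryos (median 17.0) and 76.8 to 148 in yak embryos (median 108), a difference, mel less yak on the log2(level + 1) scale, of −2.60 ± 0.15 (SE, limma adjusted p = 1.29e-11). SPoCk differed by −2.20 ± 0.13 (adjusted p = 2.03e-11) and CG17494 by −1.79 ± 0.075 (adjusted p = 1.34e-13). CG7407 (−1.61 ± 0.17), CG3502 (−1.43 ± 0.12) and Aldh (−1.38 ± 0.28) followed. For CG17494, SPoCk, CG7407, CG3502 and Adgf-A no mel embryo reached the lowest yak embryo.

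The genes highest in mel relative to yak were Mdr49 (1.95 ± 0.15, adjusted p = 1.27e-09), CG10602 (1.71 ± 0.32, adjusted p = 1.00e-04) and CG13000 (1.53 ± 0.48, adjusted p = 0.00839). Mdr49 was above all yak embryos in every mel embryo. CG10602 had 129 to 152 in mel embryos and 66.7, 61.3, 9.02, 69.6, 69.3 and 35.4 in yak. CG13000 rested in part on the third mel female, and without it the difference was 0.88, still called. CG3618 (1.19 ± 0.14), CG3781 (0.93 ± 0.10) and Ndae1 (0.85 ± 0.21) were also called higher in mel.

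**Figure D5:**
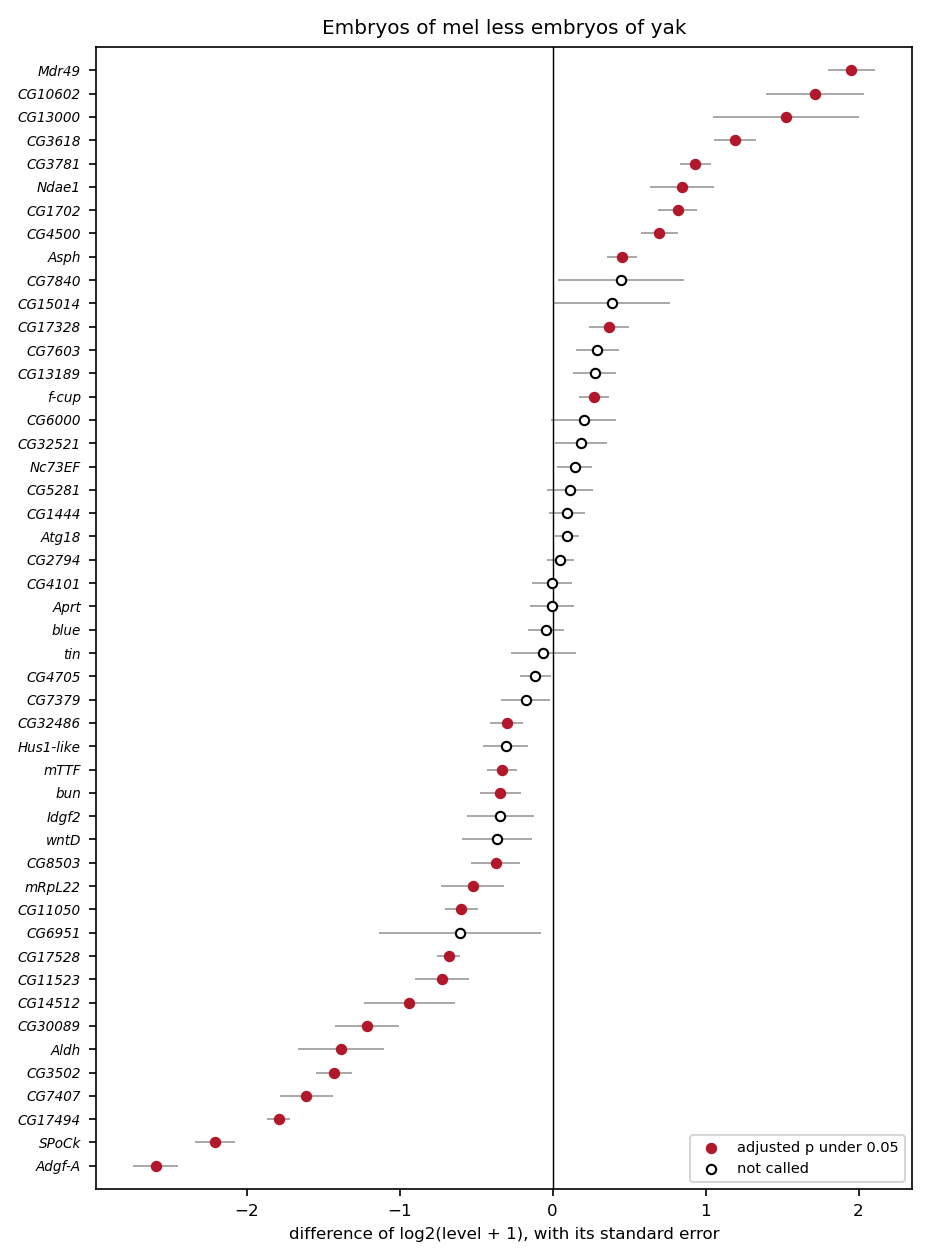
Difference between mel and yak embryos for each of the 48 genes, on the log2(level + 1) scale, with its standard error. Filled points passed an adjusted p under 0.05: 16 lie to the left of 0, down to −2.60 for Adgf-A, and 11 to the right, up to 1.95 for Mdr49.

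Female and male embryos were compared within each species, since the rule used means over both sexes. By limma with an adjusted p under 0.05, 1, 1, 1 and 0 of the 48 genes were called in the 4 species, beside 3.48%, 3.09%, 6.35% and 3.11% of all genes. In pse 13 and in vir 14 of the 48 had an embryo mean under 1 and passed the filter through mel and yak, so the counts in pse and vir are not comparable with those shares. With pse alone in the fit 35 of the 48 passed the filter and 3 were called, and with vir alone 35 passed and 0 were called. Shares over all genes are not given for the fits of a single species, so nothing is read from their counts. Without adjustment, 5, 4, 5 and 0 of the 48 genes had a limma p under 0.05, beside 630, 552, 931 and 586 of the 5856 genes tested.

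In mel and yak the called gene was CG3781, which lies on the X chromosome. Its level was 14.7, 15.9 and 13.1 in mel males and 32.1, 29.5 and 31.2 in mel females (1.04 ± 0.14 SE, female less male on the log2(level + 1) scale, limma adjusted p = 2.68e-04). In yak it was 6.24, 8.76 and 9.52 in males and 14.1, 12.8 and 15.1 in females (0.72 ± 0.14, adjusted p = 0.00514). Females and males did not overlap in either species. In pse and vir embryos CG3781 was at most 0.178, too low for a comparison of sexes. mRpL22, also on the X chromosome, had 21.5, 24.2 and 23.1 in mel males and 40.7, 43.3 and 39.5 in mel females. In yak it had 28.1, 37.1 and 36.4 in males and 68.6, 48.2 and 62.5 in females. It was not called in mel (0.82 ± 0.29, limma adjusted p = 0.170) or yak (0.80 ± 0.29, adjusted p = 0.225). With a pseudocount of 10 it was called in both.

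In pse the called gene was CG32486, which had 8.68, 11.0 and 8.397 in males and 15.4 and 17.0 in females (0.74 ± 0.17, adjusted p = 0.0120). It lies on chromosome arm 3L of mel, which is part of the X chromosome in pse. The call rests on 2 females and was lost when either was left out, with differences of 0.80 and 0.67.

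Origin, position and gene models were counted beside all genes, with no test. The authors' class of origin in mel, which came from an earlier experiment, was maternal for 30 of the 48 genes, zygotic for 9 and both for 9, which is 62.5%, 18.8% and 18.8%, beside 67.3%, 17.8% and 14.9% of all classed genes. In vir, 23 genes were maternal (47.9%, beside 62.3% of all genes) and 19 zygotic (39.6%, beside 23.1%). The vir classes were predicted from egg and embryo levels, so they contain the values that chose the genes, and nothing is read from them. By mel chromosome arm, 14 genes lay on 3L (29.2%, beside 18.8% of all genes), 13 on 2L (27.1%, beside 18.8%), 8 on 3R (16.7%, beside 25.3%), 7 on 2R (14.6%, beside 20.2%) and 6 on X (12.5%, beside 16.9%).

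Annotation can differ between species, and a short gene model can change an FPKM. The median span of the gene model relative to mel was 0.925 in yak, 0.905 in pse and 0.882 in vir for the 48 genes, beside 0.936, 0.927 and 0.984 for all genes. In vir the lower quartile was 0.622, beside 0.810 for all genes. The span was under 0.5 of that in mel for 4 genes in yak (8.33%, beside 7.29% of all genes), 3 in pse (6.25%, beside 8.19%) and 5 in vir (10.4%, beside 6.69%). The span includes introns and is not the transcript length that enters an FPKM, so the part of gene models in the levels was not tested. CG32521 was the shortest relative to mel in yak, pse and vir, at 0.0813, 0.0778 and 0.132. Of 45 genes matched in the current mel annotation, 15 have exons that overlap another coding gene: CG7840, Nc73EF, CG3502, CG11523, CG10602, Mdr49, CG6000, Hus1-like, CG6951, f-cup, CG17328, Adgf-A, CG15014, CG14512 and CG2794. The libraries were made with TruSeq RNA kits, whose standard protocol does not keep the strand. Levels of these genes may therefore include reads of the neighbour, or lack their own, and are uncertain.

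In some genes values jumped between libraries of 1 group, with and without such an overlap. CG6951 had 11.9 and 9.46 in the second vir male and the first vir female and at most 0.0688 in the other 3 vir embryos. CG15014 had 6.11 and 4.75 in the same embryos and at most 0.578 in the others. The exons of both overlap another gene, while those of CG13000, with 416 in the third mel female, do not. CG11523, which overlaps Ddx1, did not vary in this way within a group, but was listed at 0 in all vir embryos and had 124 and 122 in the vir eggs. The part of the overlap in these values was not tested.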

How the data were processed

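Messenger RNA of 31 single embryos and eggs of 4 species was sequenced. Libraries were made with TruSeq RNA kits. The authors aligned trimmed reads to transcripts with Bowtie2 in a mode that keeps all mappings, and added up the transcript estimates of eXpress for each gene. Models were those of FlyBase release 5 for mel and of previous work by the authors for yak, pse and vir. The authors deposited log10 values, log10(normalized FPKM + 1), of one-to-one orthologs under 6 normalizations, and tables of origin classes. The table with the 75th-percentile normalization on autosomal genes was the main one. The deposited group means (96 columns over the 6 tables) were not used.

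Values were turned back to FPKM. Column names gave species, sex or egg, and replicate number, and 0 columns of single samples matched no library. No 2 libraries held identical values. A value under 0.01 is written as listed at 0. Without counts the depth is unknown, and no model of counts or counting interval was used. Tests were run in R 4.3.3 with limma 3.58.1 on log2(level + 1), with empirical Bayes moderation and a trend, two-sided, for genes whose mean exceeded 1 in any group. P-values were adjusted by Benjamini-Hochberg over all genes tested, with a threshold of 0.05. The egg contrast was fitted on 29 libraries in 12 groups and the embryo contrasts on 22 libraries in 8 groups, which share 1 estimate of the spread, so that pse with its single egg is assumed to vary like the other groups. P-values measure the spread between single animals of 1 strain. On simulated data the same code recovered 87.0% of 184 genes changed by 1 on the log2 scale in the egg contrast (5213 genes tested). Changed genes that did not pass the filter on low levels are not counted. The code recovered 84.2% in the mel sex difference and 95.7% in mel less yak (5156 genes tested in each). Of all calls, 1.84%, 3.73% and 3.83% were wrong, in the same order. At a change of 2 the wrong calls were 7.29%, 4.81% and 4.3%, so the egg contrast exceeded the threshold of 0.05. Whether the single pse egg varies like the other groups was not tested.

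The 48 genes, the lists and the tests were chosen with earlier results of these data known. Named genes were those with the highest levels or species ratios, the largest called differences in each contrast, list members and genes next to the threshold. Genes with a known role, and the subjects of the egg patterns, were added after their values were seen. Current names and exon overlaps came from the mel annotation of release 6 by gene identifier, whose coordinates were not used. Promoter sequences were not analysed here.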

Additional observations from a re-analysis of the deposited data

Results flagged for a closer look

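The difference between female and male embryos of CG3781 (Josd) was larger in mel than in pse, by 1.04 ± 0.21 (SE, log2(level + 1), interaction term in limma, adjusted p = 0.0165). The gene was listed at 0 in every pse embryo, so the pse side of this difference has no room to vary. It was the only 1 of the 48 genes that passed in any of the 6 pairs of species, and the difference in mel less that in vir (1.02 ± 0.21, adjusted p = 0.0513) did not pass.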

How the results depend on the processing

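The number of genes that the rule finds was 41 to 59 under the other settings and 46 to 53 without single embryos, and 43 of the 48 were also found after quantile normalization, which gave the highest number. Called in the egg contrast were 29 to 36 of the 48 genes under the other settings and 30 to 32 without single eggs (without the pse egg 7 calls were lost and 7 gained), and in mel less yak 23 to 33 and 24 to 28. Among the egg calls, those lost most often were f-cup (in 8 of 19 alternatives), SPoCk (6) and CG32486 (6). In the egg contrast, Nc73EF ranged from −0.020 to 0.58 and CG5281 from −1.20 to 0.27 without single eggs, and both turned in sign without the pse egg. The sex calls changed most. In mel, 2 genes were called after quantile normalization, without the trend in the variance prior and with mel alone in the fit, 0 with a pseudocount of 0.1, 3 with a pseudocount of 10, and 1 to 2 without single embryos. In yak, 0 were called with a pseudocount of 0.1 and with yak alone in the fit, 2 with a pseudocount of 10, and 1 to 2 without single embryos. In pse, 0 were called after quantile normalization and with a pseudocount of 10, 3 with a pseudocount of 0.1 and with pse alone in the fit, 2 with the low-quality libraries kept, and 0 to 2 without single embryos (0 without the first or the second female, 2 without the third male). In vir the count was 0 throughout.

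Replicate numbers were not used as pairs, since female and male embryos of the same number deviated together with correlations of −0.22 to 0.51, and not all were over 0.1. With the replicate number as a block, 32 genes were called in the egg contrast, 30 in mel less yak, and 1, 1, 1 and 0 in the sex differences of mel, yak, pse and vir. In pse the gene called with the block was CG7840 (2.45) and not CG32486 (0.67, limma adjusted p = 0.0687).

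The precision is limited by 1 to 3 animals in each group and by the unknown depth.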

Other observations

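Some of the 48 genes lie near centromeres of mel, a property examined after seeing the gene positions. Within 2 Mb of the last gene at the centromeric end of the arm were 6 of the 48 genes (12.5%, beside 4.74% of all genes): CG17494, Hus1-like, CG17528, SPoCk, CG32521 and CG11523. No test was made.

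In the libraries removed by the study, most of the 48 genes were low as well. In the third pse female 40 of the 48 genes were at 0.25 or less of the lower of the mel and yak embryo means, and in the first vir male 43, beside 194 and 277 of the 3096 genes with that mean at 10 or more. The 3096 genes include the 48. The rule used that mean and chose genes low in the other embryos of pse and vir, so nothing is read from these counts.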
